A study of Homo sapiens with 12 samples.

Results

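Kinesins are motor proteins that use ATP to move along microtubules or to take their ends apart. One set of them builds the mitotic spindle, moves chromosomes and cuts the daughter cells apart, and many of its members are made mainly in G2 and mitosis. Another set carries vesicles, mitochondria and other cargo through the cytoplasm. Their transcripts were followed here in OVCAR-3, an established human line of high-grade serous ovarian carcinoma. The members were all probes with a single gene symbol made of KIF and a digit, or KIFC1, KIFC2 or KIFC3, and detected on 3 or more of the 12 arrays (detection p-value below 0.01). This gave 31 probes for 25 kinesin genes, of 14441 probes for 10873 genes kept by the same filter. Before the filter there were 57 kinesin probes for 41 genes, of 30102 probes for 20039 genes.

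Illumina HT-12 bead arrays measured total RNA taken 72 h after transfection with small interfering RNA (siRNA), which lowers the transcript it matches. The 4 groups of 3 arrays received Oct4 siRNA (siOct4, gene POU5F1), Ccnf siRNA and Nipp1 siRNA together (siCcnf+siNipp1, genes CCNF and PPP1R8), Rb1 siRNA (siRb1, gene RB1) or control siRNA. All 4 groups were the same cell line, transfected with Lipofectamine RNAiMAX and grown with serum and insulin. Whether the biological replicates that the labels name came from separate cultures is not stated, so part of the spread behind the p-values may be technical. The effects of the Ccnf and Nipp1 siRNAs cannot be told apart, because both went into the same samples, and no probe measured PPP1R8. The design asks what each knockdown did to gene expression relative to control and how the knockdowns differed from each other.

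Between 16186 and 17351 probes were detected per array, and arrays of 1 group correlated at 0.979 to 0.988. POU5F1 averaged 5.31 ± 0.495 in siOct4 samples and 10.58 ± 0.099 in control samples on the log2 intensity scale (SD, n = 3 each). It was undetected on all 3 siOct4 arrays and at least 15.88-fold lower there (limma adjusted p = 1.808e-07). The CCNF transcript was lower by a log2 fold change of -1.55 in siCcnf+siNipp1 samples (limma adjusted p = 0.0007911), and also by -0.96 in siOct4 samples (limma adjusted p = 0.01335, and 0.05341 and 0.05069 without siOct4 replicates 2 and 3). RB1 was undetected on all 3 siRb1 arrays and at least 2.22-fold lower there (limma adjusted p = 0.001025). It was also lower by -0.61 in siOct4 samples (limma adjusted p = 0.04352), which no longer passed without siOct4 replicate 2 or 3, any siCcnf+siNipp1 replicate, siRb1 replicate 3 or control replicate 1 or 3 (0.05283 to 0.1696). Of 10 markers of ovarian carcinoma epithelium, 8 passed the detection filter, and WT1 and CLDN4 did not. Of these 8, 2 were higher (KRT7 and PAX8) and 2 lower (KRT8 and EPCAM) in siOct4 samples, 0 were higher and 3 lower (KRT8, MSLN and CLDN3) in siCcnf+siNipp1 samples, and 0 were higher and 2 lower (KRT8 and KRT18) in siRb1 samples, with medians of -0.06, -0.23 and -0.35. The called shares were 50%, 37.5% and 25% of these markers, beside 32.9%, 37.1% and 4.18% of all genes. KRT8 was undetected in all 3 knockdown groups and detected in control samples. It thus passed the detection filter only through the control arrays, where it was higher, which limits its calls. Of markers of other cell types, 1 of 6 for leukocytes (CD68), 2 of 4 for endothelium (VWF and CDH5) and 1 of 6 for fibroblasts (COL1A1) passed the filter. Against control, CD68 was higher by 1.13 in siOct4 samples, VWF was lower by -1.01 in siOct4 and -1.31 in siCcnf+siNipp1 samples, CDH5 was lower by -0.63 and COL1A1 higher by 0.77 in siCcnf+siNipp1 samples, and none of the 4 was called in siRb1 samples. The part of these markers in the kinesin results was not tested.

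The kinesins fell into 3 classes by their known roles. The mitotic class held 14 probes for 12 genes, the transport class 15 probes for 11 genes, and a class of cilium, signalling and other kinesins held 2 probes for 2 genes. All 12 mitotic genes were detected on all 12 arrays by their brightest probe, against 7 of the 11 transport genes. Genes that did not pass the filter were KIF2B and KIF4B of the mitotic class, KIF3A, KIF5A, KIF13A, KIF17, KIF21B and KIFC3 of the transport class, and KIF6, KIF7, KIF9, KIF19, KIF25, KIF26A, KIF26B and KIF27 of the third. KIF18B has no probe on these arrays. Just outside the filter, a KIF21B probe was detected on 2 arrays, and just inside it, the second probe of KIF16B was detected on 3.

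Promoters of mitotic kinesins are known in part for a pair of short elements, the CCAAT box, which binds NF-Y, and the cell cycle genes homology region (CHR), which binds the DREAM and MuvB complexes. These windows are shown because the mitotic kinesins moved together in the arrays, and they run from 120 bases before to 30 after the annotated start (RefSeq, GRCh38.p14). Capitals mark a CCAAT box or a CHR on either strand. KIF4A, KIF11 and KIF14 hold both elements in this window, whereas KIF2C (mitotic) and KIF1A (transport) hold neither.
KIF4A, chrX:70289984-70290133, plus strand: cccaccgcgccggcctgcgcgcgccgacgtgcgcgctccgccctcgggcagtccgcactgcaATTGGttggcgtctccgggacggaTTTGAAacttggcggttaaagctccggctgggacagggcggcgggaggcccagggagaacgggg
KIF11, chr10:92593010-92593159, plus strand: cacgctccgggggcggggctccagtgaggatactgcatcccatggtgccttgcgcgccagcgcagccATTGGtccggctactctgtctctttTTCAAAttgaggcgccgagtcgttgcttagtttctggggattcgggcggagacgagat
KIF14, chr1:200620722-200620871, minus strand: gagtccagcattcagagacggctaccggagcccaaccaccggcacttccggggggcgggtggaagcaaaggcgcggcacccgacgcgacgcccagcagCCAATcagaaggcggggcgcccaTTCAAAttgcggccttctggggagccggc
KIF2C, chr1:44739717-44739866, plus strand: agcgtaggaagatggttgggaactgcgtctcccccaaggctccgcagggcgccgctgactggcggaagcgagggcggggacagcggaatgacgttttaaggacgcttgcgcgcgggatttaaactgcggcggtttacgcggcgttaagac
KIF1A, chr2:240821374-240821523, minus strand: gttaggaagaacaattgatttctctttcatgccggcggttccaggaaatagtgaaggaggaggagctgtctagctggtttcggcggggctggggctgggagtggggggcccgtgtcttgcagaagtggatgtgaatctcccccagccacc

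Searching the full window of 250 bases before to 50 after the start, a promoter was found for 23 of the 25 genes in RefSeq's table, all but KIF13B and KIFC2. The CHR was searched as TTTGAA or TTCGAA and the CCAAT box as CCAAT, each on its own and on either strand. A CHR lay in 9 of 12 mitotic promoters (75.0%) and 1 of 9 transport promoters (11.1%), against 16.6% of all 27305 promoters. A CCAAT box lay in 9 of 12 mitotic promoters (75.0%) and 3 of 9 transport promoters (33.3%), against 35.7% of all. Both lay in 8 of 12 mitotic promoters (66.7%), in 1 of 9 transport promoters (11.1%), which was that of KIF5B, and in 6.58% of all.

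The order of the pair was the same in every mitotic promoter that held both, but the spacing varied widely. Measured between the first bases of the nearest pair, the CHR lay 9 bases downstream of the CCAAT box in KIF23. It lay 23, 24 and 25 bases downstream in KIF14, KIF4A and KIF11. The distance was 35 in KIF18A, 39 in KIF22, 50 in KIFC1 and 122 in KIF20B. In KIF5B the CHR lay 81 bases upstream. KIF2A and KIF2C, both microtubule depolymerases of the kinesin-13 family, held neither letter string. The same was true of the transport genes KIF1A, KIF1C, KIF3C, KIF5C, KIF16B and KIF21A. An E2F site, searched as TTTGGCGC, TTTCCCGC, TTTCGCGC or TTTGGCGG on either strand, matched KIF11, KIF15 and KIF16B, and 3.43% of all promoters. The octamer ATGCAAAT, the site that OCT4 and other POU factors bind, matched 0 of 12 mitotic and 0 of 9 transport promoters, against 1.8% of all. A match describes letters in the window and not a bound site, and a window without one says nothing about the factor.

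**Figure D1:**
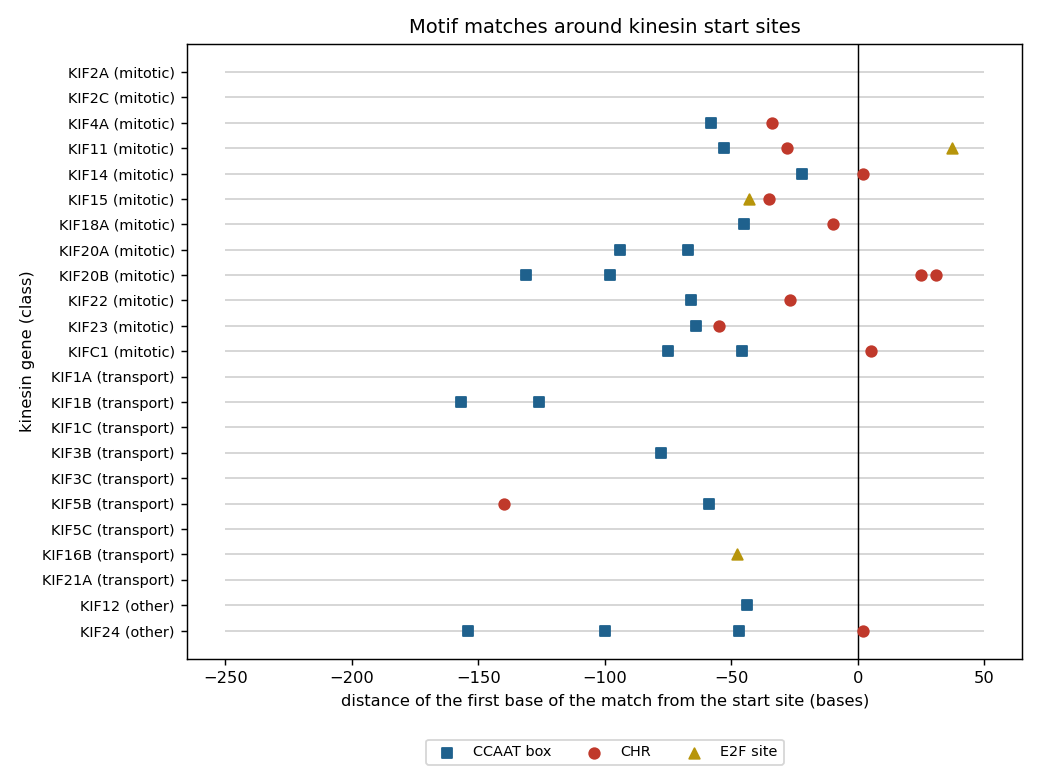
Positions of motif matches around the annotated start of the 23 kinesin promoters; the x axis gives the distance of the first base of each match from the start in bases, rows are genes with their class, and grey lines span the window searched. CCAAT boxes (squares) precede CHR matches (circles) in 8 mitotic promoters. No match was found for KIF2A and KIF2C (mitotic) or for KIF1A, KIF1C, KIF3C, KIF5C and KIF21A (transport).

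In siOct4 samples the mitotic kinesins fell as a class while most transport kinesins did not pass the test. Of the 31 kinesin probes, 1 was higher and 15 were lower in siOct4 than in control samples, where 32.1% of all kept probes changed in either direction, 15.7% higher and 16.4% lower. Of the 14 mitotic probes 12 were lower and 0 higher, with a median log2 fold change of -1.19, beside a median of -0.0262 over all kept probes. Of the 15 transport probes 1 was higher and 2 were lower. Whether fewer cells in mitosis or less transcript per cell lies behind a lower level cannot be told apart in RNA from whole cultures. A probe was called at a limma adjusted p under 0.05, Benjamini-Hochberg adjusted over all kept probes. Below, a gene's values come from its brightest kept probe, and levels are background-corrected, quantile-normalised log2 intensities.

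In siCcnf+siNipp1 samples the mitotic kinesins also fell, and so did the transport kinesins KIF1A, KIF5C and KIF13B. Of the 31 kinesin probes, 4 were higher and 17 were lower than in control samples, where 36% of all kept probes changed, 17.4% higher and 18.6% lower. Of the 14 mitotic probes 13 were lower and 0 higher, with a median log2 fold change of -1.14, beside -0.00744 over all kept probes. Of the 15 transport probes 3 were higher and 3 lower. With the replicate number as a block the transport count became 6 in siOct4 samples, against 3 without it, and 10 in siCcnf+siNipp1 samples, against 6 without it. Under the block 41.6% of all kept probes were called in siOct4 samples and 45.6% in siCcnf+siNipp1 samples. These 2 comparisons share the control samples.

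In siRb1 samples 1 of the 31 kinesin probes was called, KIF3C, which was lower. Over all kept probes 3.99% changed in this comparison, 2.46% higher and 1.53% lower, a split of 355 higher and 221 lower probes that became 186 and 279 with median scaling. The mitotic probes had 0 calls in either direction and a median log2 fold change of -0.01. With the replicate block 2 kinesin probes and 1315 of all kept probes were called, against 1 and 576 without it. The second call was a dim probe of KIF23, described with that gene.

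**Figure D2:**
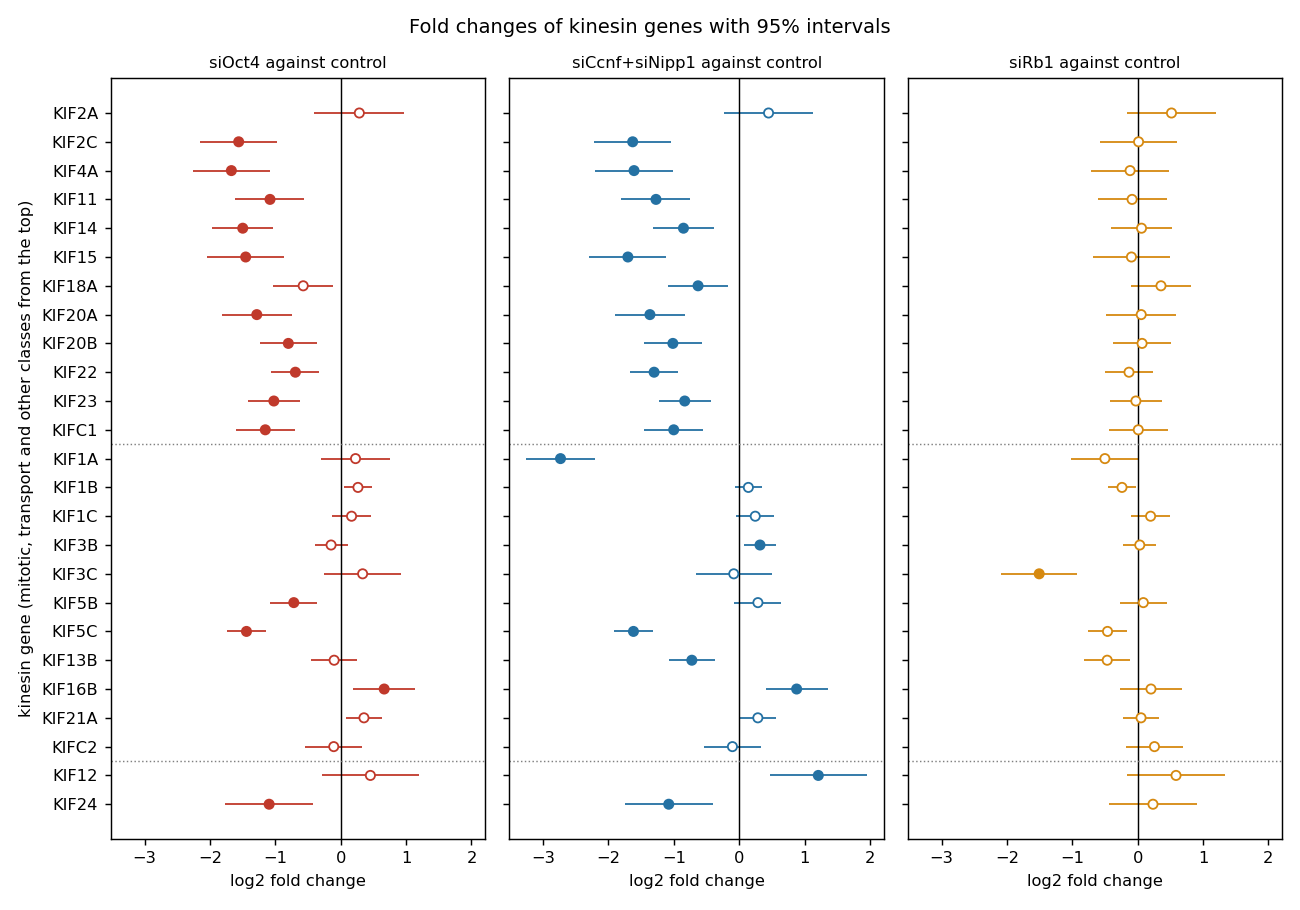
Log2 fold change of each kinesin gene, read by its brightest kept probe, in siOct4, siCcnf+siNipp1 and siRb1 samples against control samples, with 95% confidence intervals from limma (3 arrays per group); filled points passed the test and open points did not, and dotted lines separate the classes. Mitotic genes other than KIF2A lie below 0 in siOct4 and siCcnf+siNipp1 samples and between -0.13 and 0.36 in siRb1 samples, and KIF1A in siCcnf+siNipp1 samples has the lowest value, -2.73.

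Among the motors that build and hold the bipolar spindle, KIF11 (Eg5), which slides antiparallel microtubules apart, fell in both knockdowns. Its level was 9.70, 8.67 and 9.08 in siOct4 samples, 9.44, 8.72 and 8.72 in siCcnf+siNipp1 samples, 10.15, 10.20 and 10.09 in siRb1 samples and 10.18, 10.22 and 10.30 in control samples. All siOct4 and siCcnf+siNipp1 arrays lay below all control arrays. The log2 fold change of KIF11 was -1.08 (SE 0.242, limma adjusted p = 0.005232) in siOct4 samples and -1.27 (limma adjusted p = 0.001916) in siCcnf+siNipp1 samples. Its second probe gave -1.22 in siOct4 samples and -1.34 in siCcnf+siNipp1 samples. The siRb1 value of KIF11 was -0.09, with a 95% interval from -0.61 to 0.44.

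KIF15, a plus-end motor that can keep spindles bipolar when KIF11 is inhibited, fell in both knockdowns too. It measured 8.49, 7.24 and 7.90 in siOct4 samples, 7.88, 7.24 and 7.75 in siCcnf+siNipp1 samples, 9.24, 9.15 and 9.30 in siRb1 samples and 9.08, 9.60 and 9.30 in control samples. Its highest siOct4 array stayed below its lowest control array. For KIF15 the log2 fold change came to -1.45 in siOct4 samples (SE 0.27, limma adjusted p = 0.001818) and -1.70 in siCcnf+siNipp1 samples (limma adjusted p = 0.000638). KIFC1 (HSET), a minus-end motor that focuses spindle poles and clusters extra centrosomes in cancer cells, measured 11.30, 10.66 and 10.83 in siOct4 samples, 11.53, 10.74 and 10.98 in siCcnf+siNipp1 samples and 12.09, 12.16 and 12.002 in control samples. It fell to a log2 fold change of -1.15 in siOct4 samples (limma adjusted p = 0.001386) and -1.002 in siCcnf+siNipp1 samples (limma adjusted p = 0.002943).

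Of the motors that act on chromosomes and kinetochores, KIF2C, KIF4A and KIF22 fell in both knockdowns. KIF2C (MCAK), a centromeric depolymerase that helps correct wrong attachments, measured 10.02, 9.08 and 9.12 in siOct4 samples, 9.93, 9.15 and 8.93 in siCcnf+siNipp1 samples, 11.08, 11.02 and 10.85 in siRb1 samples and 10.99, 10.998 and 10.92 in control samples. The groups of both knockdowns lay wholly below control, while the siRb1 arrays overlapped it. Its log2 fold change was -1.56 in siOct4 samples (SE 0.268, limma adjusted p = 0.001136), -1.63 in siCcnf+siNipp1 samples (limma adjusted p = 0.0008082) and 0.01 in siRb1 samples (95% interval -0.57 to 0.60).

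KIF4A, a chromokinesin that sets the length of midzone microtubules with PRC1, had the most negative value of the mitotic class in siOct4 samples. It measured 9.09, 7.78 and 8.23 in siOct4 samples, 8.73, 8.13 and 8.44 in siCcnf+siNipp1 samples, 9.78, 10.14 and 9.86 in siRb1 samples and 9.90, 10.16 and 10.07 in control samples. No array of either knockdown reached the control range. KIF4A changed by a log2 fold change of -1.67 in siOct4 samples (SE 0.272, limma adjusted p = 0.0008079) and -1.61 in siCcnf+siNipp1 samples (limma adjusted p = 0.0009437). KIF22 (Kid), a chromokinesin that pushes chromosome arms towards the metaphase plate, measured 11.57, 11.44 and 11.14 in siOct4 samples, 11.07, 10.72 and 10.54 in siCcnf+siNipp1 samples and 11.998, 12.27 and 11.97 in control samples. Its log2 fold change was -0.69 in siOct4 samples (limma adjusted p = 0.008548) and -1.30 in siCcnf+siNipp1 samples (limma adjusted p = 0.0001935).

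KIF18A, a plus-end motor that damps chromosome oscillations at metaphase, lay near the threshold. It measured 9.50, 8.91 and 9.01 in siOct4 samples, 9.58, 8.81 and 8.86 in siCcnf+siNipp1 samples, 10.03, 10.24 and 9.93 in siRb1 samples and 9.61, 9.84 and 9.69 in control samples. Its arrays in both knockdowns lay below the control arrays, and its siRb1 arrays lay above them. The log2 fold change of KIF18A was -0.57 in siOct4 samples (limma adjusted p = 0.05543, and 0.03921 with the replicate block) and -0.63 in siCcnf+siNipp1 samples (limma adjusted p = 0.03508). The siCcnf+siNipp1 call was lost without siCcnf+siNipp1 replicates 2 and 3 (limma adjusted p = 0.1333 and 0.1223) and without control replicates 1, 2 and 3 (0.0566, 0.1028 and 0.0741). The siRb1 value of KIF18A was 0.36 (limma adjusted p = 0.4105).

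KIF2A, a spindle-pole depolymerase that also works outside mitosis, was the member of the mitotic class whose value lay above 0 in both knockdowns. It measured 9.76, 9.11 and 9.24 in siOct4 samples, 9.75, 9.08 and 9.77 in siCcnf+siNipp1 samples, 9.91, 9.09 and 9.80 in siRb1 samples and 9.60, 8.45 and 9.20 in control samples. Replicate 2 was the lowest array in each of the 4 groups, and the groups overlapped. The log2 fold change of KIF2A was 0.28 in siOct4 samples (limma adjusted p = 0.5275), 0.45 in siCcnf+siNipp1 samples (0.2911, and 0.02847 with the replicate block) and 0.52 in siRb1 samples (0.4273).

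The motors of the central spindle and of cytokinesis fell in both knockdowns too. KIF14, which works with citron kinase at the midbody, measured 9.42, 8.62 and 8.41 in siOct4 samples, 9.54, 9.32 and 9.52 in siCcnf+siNipp1 samples, 10.20, 10.50 and 10.41 in siRb1 samples and 10.17, 10.37 and 10.40 in control samples. Its log2 fold change was -1.50 in siOct4 samples (SE 0.215, limma adjusted p = 0.0003782) and -0.85 in siCcnf+siNipp1 samples (limma adjusted p = 0.009044). KIF20A (MKLP2), which brings the chromosomal passenger complex to the midzone, measured 10.997, 9.91 and 10.36 in siOct4 samples, 10.72, 9.95 and 10.36 in siCcnf+siNipp1 samples and 11.78, 11.71 and 11.64 in control samples. Every siOct4 and siCcnf+siNipp1 array of KIF14 and KIF20A lay below every control array. KIF20A had log2 fold changes of -1.28 in siOct4 samples (limma adjusted p = 0.002078) and -1.37 in siCcnf+siNipp1 samples (limma adjusted p = 0.001316). KIF20B (MPP1), which acts late in cytokinesis, fell by 0.80 on the log2 scale in siOct4 samples (limma adjusted p = 0.009961) and by 1.02 in siCcnf+siNipp1 samples (0.002464).

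KIF23 (MKLP1), the motor of the centralspindlin complex, was read by a bright and a dim probe that differed in siRb1 samples. The bright probe measured 10.38, 9.59 and 9.88 in siOct4 samples, 10.42, 9.95 and 10.05 in siCcnf+siNipp1 samples, 10.92, 10.92 and 10.99 in siRb1 samples and 10.92, 11.04 and 10.97 in control samples. The dim probe, which is annotated to another transcript of the gene, measured 7.14, 6.70 and 6.31 in siOct4 samples, 7.78, 6.88 and 7.10 in siCcnf+siNipp1 samples, 7.44, 7.39 and 7.27 in siRb1 samples and 8.25, 8.28 and 7.95 in control samples. Its siRb1 arrays lay below its control arrays, whereas those of the bright probe overlapped control. In siOct4 samples the KIF23 log2 fold change was -1.02 by the bright probe (limma adjusted p = 0.001464) and -1.44 by the dim one. The dim probe was undetected on 1 siOct4 array. In siCcnf+siNipp1 samples it was -0.83 by the bright probe (limma adjusted p = 0.004347) and -0.91 by the dim one (0.01118, and 0.05156 without siCcnf+siNipp1 replicate 2). In siRb1 samples it was -0.03 by the bright probe and -0.80 by the dim one (limma adjusted p = 0.09104, and 0.02558 with the replicate block).

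**Figure D3:**
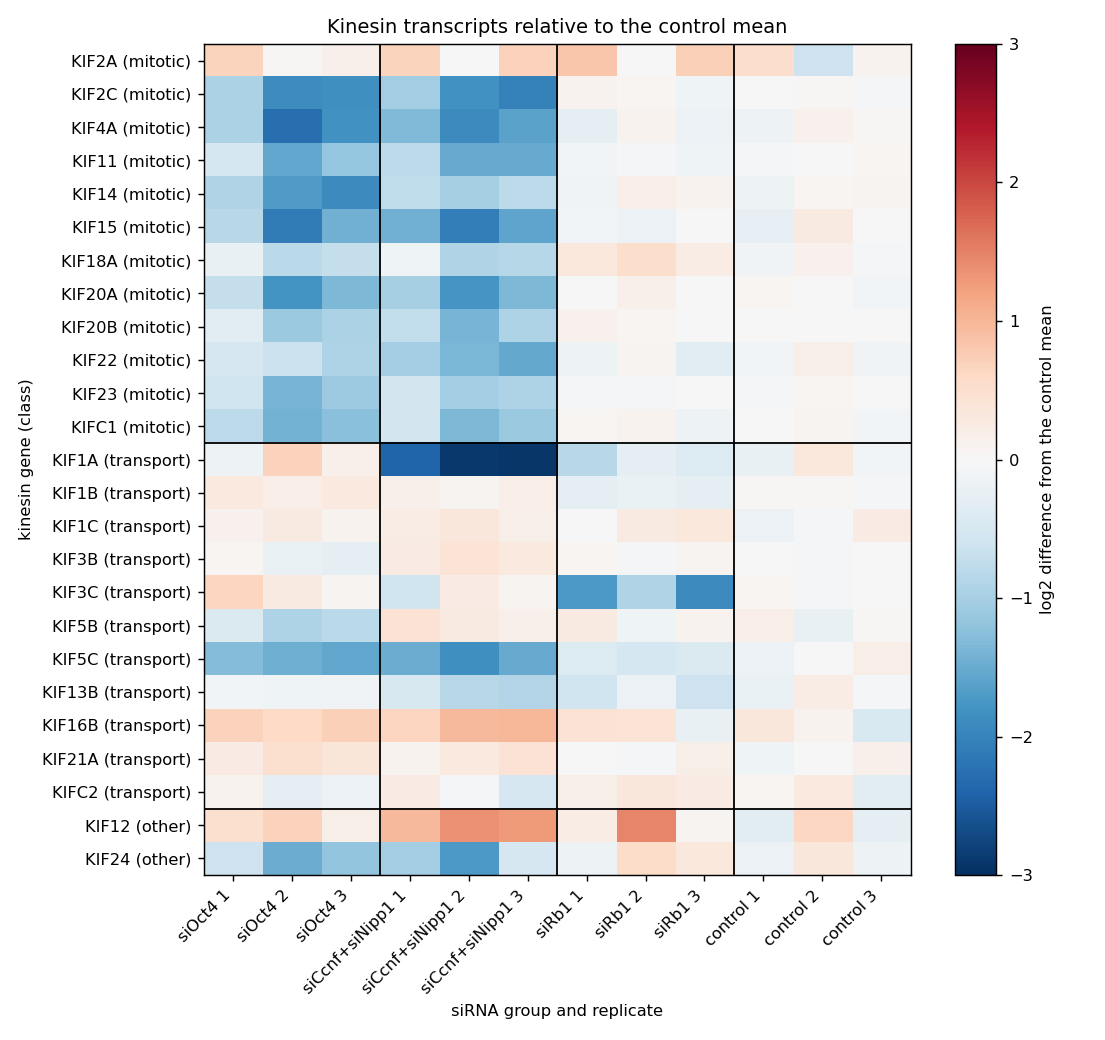
Log2 intensity of each of the 25 kinesin genes on each of the 12 arrays, minus the mean of the 3 control arrays; the colour scale runs from -3 (blue) to 3 (red) and black lines separate the groups and the classes. The mitotic genes are blue in siOct4 and siCcnf+siNipp1 samples apart from KIF2A, and paler in replicate 1 of both groups.

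The mitotic falls were uneven between replicates. The median over the 12 mitotic genes of the difference from the control mean was -0.65, -1.49 and -1.21 in siOct4 replicates 1, 2 and 3 and -0.78, -1.38 and -1.23 in siCcnf+siNipp1 replicates 1, 2 and 3. Replicate 1 had the smallest fall in both groups. In siRb1 samples the medians were -0.02, 0.07 and -0.01, against -0.05, 0.06 and -0.02 in control samples. Without siOct4 replicate 1 the mitotic probes called lower in siOct4 samples numbered 13 of 14, and leaving out any 1 array gave 12 or 13 in siOct4 samples and 11 to 13 in siCcnf+siNipp1 samples. In both groups 13 of 14 mitotic probes had all knockdown arrays below all control arrays. Of all 14441 kept probes, 3276 lay wholly below control in siOct4 samples and 3654 in siCcnf+siNipp1 samples. Counting both directions, 44.9% of all kept probes did not overlap control in siOct4 samples and 49.2% in siCcnf+siNipp1 samples.

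**Figure D4:**
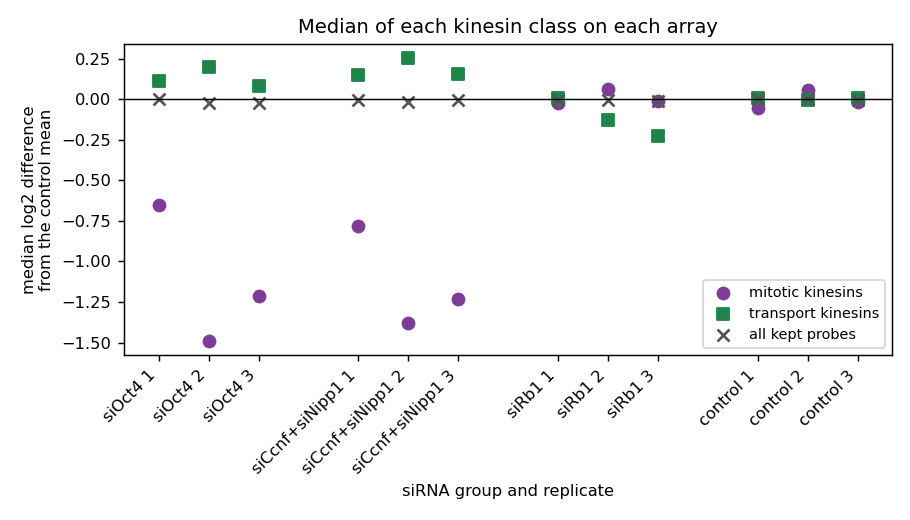
Median log2 difference from the control mean on each array over the 12 mitotic kinesin genes (circles), the 11 transport kinesin genes (squares) and all 14441 kept probes (crosses). The mitotic median lies between -0.65 and -1.49 on the siOct4 and siCcnf+siNipp1 arrays and within 0.07 of 0 on the siRb1 and control arrays.

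Set against siRb1 in place of control, the same class was lower in both knockdowns. Of the 31 kinesin probes 3 were higher and 15 lower in siOct4 than in siRb1 samples, where 31.5% of all kept probes changed (15.4% higher and 16% lower). The split over all kept probes was 49% higher, and 60.9% higher with median scaling. In siCcnf+siNipp1 against siRb1 samples 3 kinesin probes were higher and 15 lower, where 33.9% of all kept probes changed (16.6% higher and 17.3% lower). The mitotic probes gave 12 of 14 lower calls in each of these comparisons, with a median log2 fold change of -1.02 in siOct4 samples and -1.12 in siCcnf+siNipp1 samples. KIF2C, for example, was lower by -1.57 in siOct4 than in siRb1 samples (limma adjusted p = 0.001178). With the replicate block KIF21A was also called higher by 0.30 (limma adjusted p = 0.02661) and the dim KIF23 probe lower by -0.65 (0.01633) in siOct4 than in siRb1 samples, and KIF12 higher by 0.62 (0.04374) in siCcnf+siNipp1 than in siRb1 samples.

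Of the mitotic kinesins, KIF14 and KIF22 passed the test between siOct4 and siCcnf+siNipp1 samples. Of the 31 kinesin probes 3 were higher and 4 lower in siOct4 than in siCcnf+siNipp1 samples, where 33.2% of all kept probes changed (16.6% higher and 16.6% lower). Among the 14 mitotic probes, that of KIF22 was higher by 0.61 (limma adjusted p = 0.01612) and that of KIF14 was lower by -0.65 (limma adjusted p = 0.03648). The KIF22 call was lost without siOct4 replicate 1 (limma adjusted p = 0.05714) or siCcnf+siNipp1 replicate 3 (0.06931). The KIF14 call was lost without siOct4 replicate 2 (limma adjusted p = 0.1169) or 3 (0.1372) and without siCcnf+siNipp1 replicate 1 (0.08988), 2 (0.05083) or 3 (0.09525). The difference of KIF2C was 0.07 with a 95% interval from -0.52 to 0.65, that of KIF4A was -0.06 (-0.66 to 0.53) and that of KIF11 was 0.19 (-0.34 to 0.72). These intervals leave room for differences of up to 0.72 on the log2 scale. With the replicate block the dim KIF23 probe was also called lower, by -0.54 (limma adjusted p = 0.03468), as was KIF12, by -0.76 (0.02027), where 42.9% of all kept probes were called under the block.

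The transport kinesins gave calls in both directions. Against control, KIF5C fell and KIF16B rose in both siOct4 and siCcnf+siNipp1 samples, while the other called genes passed the test in 1 of the groups. KIF1A, a kinesin-3 motor known for carrying synaptic vesicle precursors in neurons, fell below detection in siCcnf+siNipp1 samples. It measured 8.53, 9.36 and 8.83 in siOct4 samples, 6.29, 5.78 and 5.77 in siCcnf+siNipp1 samples, 7.84, 8.41 and 8.28 in siRb1 samples and 8.45, 9.002 and 8.59 in control samples. It was undetected on all 3 siCcnf+siNipp1 arrays and detected on the other 9. The detection filter was thus passed only through those 9 arrays, where KIF1A was higher, which limits its siCcnf+siNipp1 calls. KIF1A was at least 4.079-fold lower in siCcnf+siNipp1 than in control samples (fitted log2 fold change -2.73, SE 0.239, limma adjusted p = 1.959e-05). Such a bound sets the mean of the brighter group against the lowest signals detected on the arrays of the other, since an undetected probe has no level of its own.

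The other knockdowns left KIF1A detected. Its log2 fold change was 0.23 in siOct4 samples (limma adjusted p = 0.5065) and -0.50 in siRb1 samples (0.2984). Against siCcnf+siNipp1 samples it was at least 4.772-fold higher in siOct4 samples (limma adjusted p = 7.866e-06), and in siCcnf+siNipp1 against siRb1 samples it was at least 2.881-fold lower (limma adjusted p = 7.484e-05). It was higher by 0.73 in siOct4 than in siRb1 samples (limma adjusted p = 0.03647). That call did not survive without siOct4 replicate 2 (0.1424) or 3 (0.06703) or siRb1 replicate 1 (0.1347) or 3 (0.06347).

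KIF5B, the conventional kinesin heavy chain found in most cells, fell in siOct4 samples. It measured 9.66, 9.18 and 9.30 in siOct4 samples, 10.52, 10.37 and 10.25 in siCcnf+siNipp1 samples, 10.37, 9.97 and 10.21 in siRb1 samples and 10.30, 9.86 and 10.12 in control samples. All siOct4 arrays lay below all arrays of the other 3 groups. The log2 fold change of KIF5B was -0.72 in siOct4 samples (SE 0.165, limma adjusted p = 0.006035) and 0.29 in siCcnf+siNipp1 samples (0.1972, and 0.04009 with the replicate block). The difference between the knockdowns was itself tested, and KIF5B was lower by -1.004 in siOct4 than in siCcnf+siNipp1 samples (limma adjusted p = 0.000748) and by -0.80 than in siRb1 samples (0.003363).

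KIF5C, the heavy chain of the same family that is enriched in neurons, fell in both knockdowns. It measured 6.86, 6.72 and 6.61 in siOct4 samples, 6.68, 6.33 and 6.66 in siCcnf+siNipp1 samples, 7.77, 7.64 and 7.73 in siRb1 samples and 7.998, 8.16 and 8.36 in control samples. It was detected on 2 of 3 siOct4 arrays and 1 of 3 siCcnf+siNipp1 arrays, and on all siRb1 and control arrays. The log2 fold change of KIF5C was -1.44 in siOct4 samples (SE 0.136, limma adjusted p = 3.056e-05), -1.62 in siCcnf+siNipp1 samples (1.632e-05) and -0.46 in siRb1 samples (0.08763). Against siRb1 samples it was lower by -0.98 in siOct4 samples (limma adjusted p = 0.000331) and by -1.16 in siCcnf+siNipp1 samples (0.0001253).

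KIF3C, a kinesin-2 motor subunit, was the kinesin that fell in siRb1 samples. It measured 8.16, 7.79 and 7.59 in siOct4 samples, 6.92, 7.77 and 7.60 in siCcnf+siNipp1 samples, 5.80, 6.60 and 5.61 in siRb1 samples and 7.56, 7.45 and 7.52 in control samples. It was detected on 1 of 3 siRb1 arrays and on the other 9 arrays. In siRb1 samples KIF3C had a log2 fold change of -1.51 (SE 0.268, limma adjusted p = 0.01028). It was 0.34 in siOct4 samples (limma adjusted p = 0.3719) and -0.08 in siCcnf+siNipp1 samples (0.8365). Against siRb1 samples KIF3C was higher by 1.84 in siOct4 samples (limma adjusted p = 0.0004382) and by 1.42 in siCcnf+siNipp1 samples (0.001882).

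KIF3B, which pairs with KIF3A in the kinesin-2 motor of intraflagellar transport, measured 10.50, 10.23 and 10.14 in siOct4 samples, 10.69, 10.85 and 10.73 in siCcnf+siNipp1 samples and 10.45, 10.41 and 10.45 in control samples. The siCcnf+siNipp1 arrays lay above the control arrays. There KIF3B was higher by 0.32 on the log2 scale (limma adjusted p = 0.0492). This call was lost without siOct4 replicate 2, any siCcnf+siNipp1, siRb1 or control replicate, with adjusted p between 0.05535 and 0.1529, and its second probe gave 0.32 with a limma adjusted p of 0.08765 (0.04449 with the replicate block). The call was also lost when the 2 probes were averaged. KIF3B was lower by -0.47 in siOct4 than in siCcnf+siNipp1 samples (limma adjusted p = 0.009127). Its partner KIF3A was detected on 1 array.

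Of the kinesin-3 motors that carry vesicles, KIF13B and KIF16B passed the test against control. KIF13B measured 9.01, 8.96 and 8.99 in siOct4 samples, 8.61, 8.26 and 8.21 in siCcnf+siNipp1 samples, 8.49, 8.91 and 8.46 in siRb1 samples and 8.89, 9.32 and 9.05 in control samples. It fell in siCcnf+siNipp1 samples by 0.72 on the log2 scale (SE 0.161, limma adjusted p = 0.004521), against values of -0.10 in siOct4 samples (0.6706) and -0.47 in siRb1 samples (0.1402). KIF13B was higher by 0.62 in siOct4 than in siCcnf+siNipp1 samples (limma adjusted p = 0.01102).

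KIF16B, a motor of early endosomes, measured 6.91, 6.80 and 6.92 in siOct4 samples, 6.86, 7.19 and 7.22 in siCcnf+siNipp1 samples, 6.64, 6.63 and 5.99 in siRb1 samples and 6.54, 6.33 and 5.77 in control samples. It was undetected on all 3 control arrays and detected on all siOct4 and siCcnf+siNipp1 arrays. It thus passed the detection filter through knockdown arrays and no control array, which limits the calls that follow. KIF16B was at least 1.486-fold higher in siCcnf+siNipp1 samples (limma adjusted p = 0.008117) and at least 1.281-fold higher in siOct4 samples (0.03428). The siOct4 call was lost without siOct4 replicate 1, 2 or 3 (limma adjusted p = 0.07274, 0.06541 and 0.08428) or control replicate 2 or 3 (0.05467 and 0.142).

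The remaining transport kinesins gave no call against control. KIF1B, whose isoforms carry mitochondria and synaptic vesicle precursors, measured 11.24, 11.15 and 11.24 in siOct4 samples, 11.10, 11.02 and 11.14 in siCcnf+siNipp1 samples, 10.67, 10.75 and 10.69 in siRb1 samples and 10.97, 10.97 and 10.89 in control samples. Its siRb1 arrays lay below and its siOct4 arrays above the control arrays. Its log2 fold change was 0.26 in siOct4 samples (limma adjusted p = 0.0561, and 0.03031 with the replicate block) and -0.24 in siRb1 samples (0.2139). Set against each other, KIF1B was higher by 0.50 in siOct4 than in siRb1 samples (limma adjusted p = 0.002334) and by 0.38 in siCcnf+siNipp1 than in siRb1 samples (0.01009). Both of these calls were lost when the 3 KIF1B probes were averaged, with 0.06 (limma adjusted p = 0.7447) against siRb1 in siOct4 samples and 0.12 (0.5002) in siCcnf+siNipp1 samples. KIF21A, a kinesin-4 motor that slows microtubule growth, had a log2 fold change of 0.36 in siOct4 samples (limma adjusted p = 0.05102, and 0.01325 with the replicate block) and 0.29 in siCcnf+siNipp1 samples (0.1015, and 0.03165 with the block). KIF1C and KIFC2 had log2 fold changes between -0.11 and 0.26 in the 3 knockdowns and no call.

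**Figure D5:**
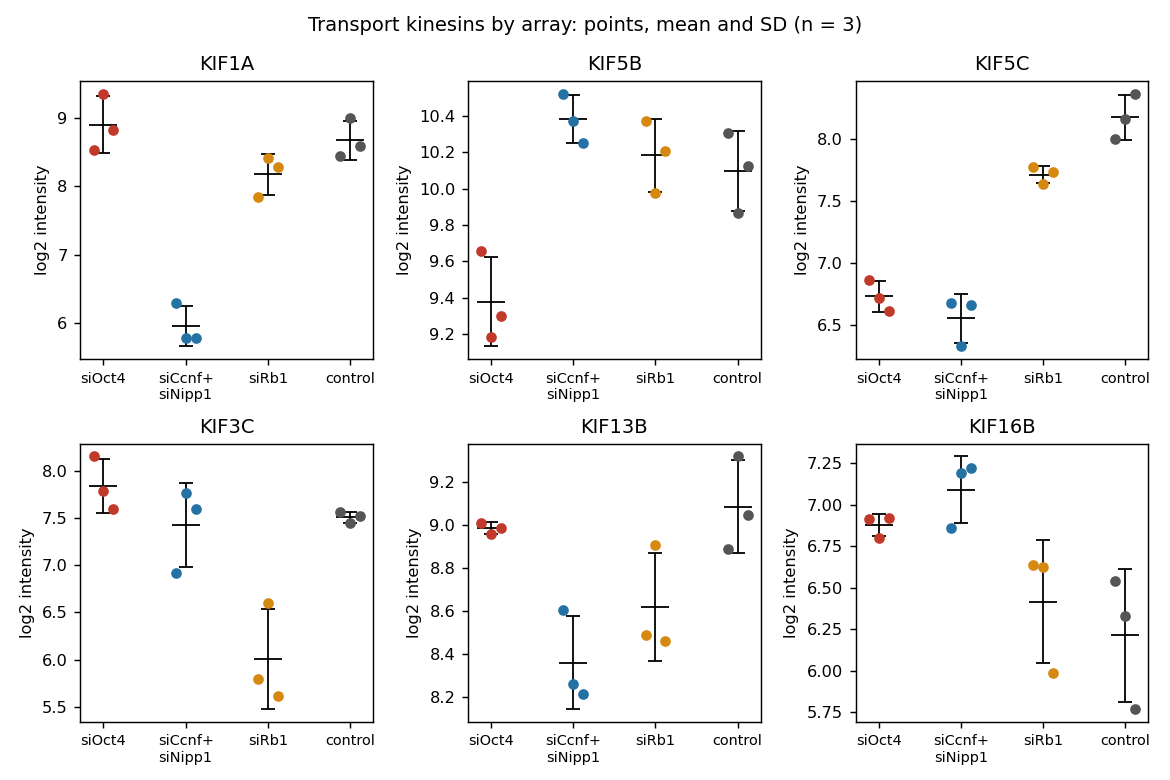
Log2 intensity on each of the 3 arrays per group (points, with the mean and SD as bars) for 6 transport kinesins, each panel with its own axis range. KIF1A is low in siCcnf+siNipp1 samples, KIF3C in siRb1 samples, KIF5B in siOct4 samples and KIF5C in siOct4 and siCcnf+siNipp1 samples.

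In the third class, KIF24, a kinesin-13 motor of the mother centriole that restrains cilium formation, was detected in siRb1 and control samples and undetected in siOct4 and siCcnf+siNipp1 samples. It measured 6.48, 5.61 and 5.93 in siOct4 samples, 6.09, 5.38 and 6.60 in siCcnf+siNipp1 samples, 6.94, 7.66 and 7.41 in siRb1 samples and 6.93, 7.43 and 6.94 in control samples. It thus passed the detection filter only through the siRb1 and control arrays, where it was higher, which limits the calls that follow. KIF24 was at least 1.425-fold lower in siOct4 samples (limma adjusted p = 0.01827) and at least 1.364-fold lower in siCcnf+siNipp1 samples (0.01794). The siOct4 call was lost without siOct4 replicate 2 (limma adjusted p = 0.07692) or 3 (0.0532) or control replicate 2 (0.06996), and the siCcnf+siNipp1 call without siCcnf+siNipp1 replicate 2 (0.0763) or control replicate 2 (0.06908). Its promoter, like those of 8 mitotic genes and of the transport kinesin KIF5B, held both a CCAAT box and a CHR. Whether the pair bears on the level of KIF24 was not tested.

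KIF12, a kinesin of kidney and liver epithelia, measured 7.10, 7.32 and 6.80 in siOct4 samples, 7.59, 7.997 and 7.89 in siCcnf+siNipp1 samples, 6.85, 8.07 and 6.69 in siRb1 samples and 6.30, 7.23 and 6.32 in control samples. It was detected on all siOct4 and siCcnf+siNipp1 arrays, on 2 of 3 siRb1 arrays and on 1 of 3 control arrays. It rose in siCcnf+siNipp1 samples with a fitted log2 fold change of 1.21 (SE 0.341, limma adjusted p = 0.01633). The call was lost without siCcnf+siNipp1 replicate 2 (limma adjusted p = 0.05587) or control replicate 1 (0.06033) or 3 (0.06162). Replicate 2 was the highest array of KIF12 in each of the 4 groups.

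Proteins that work with the mitotic kinesins were read from a separate list of 19 genes with a kept probe. Of these, 17 were lower and 0 higher in siOct4 samples (median log2 fold change -1.20), 17 were lower and 0 higher in siCcnf+siNipp1 samples (-0.91), and 0 changed in siRb1 samples (0.07). Over all 10873 genes 1833 were higher and 1746 lower in siOct4 samples (32.9% called), 2001 higher and 2036 lower in siCcnf+siNipp1 samples (37.1%), and 290 higher and 164 lower in siRb1 samples (4.18%). CENPE, the kinetochore kinesin whose symbol lies outside the naming rule, had log2 fold changes of -1.44 in siOct4 samples (SE 0.204, limma adjusted p = 0.0003633), -1.12 in siCcnf+siNipp1 samples (0.001515) and 0.09 in siRb1 samples (0.8796). AURKB, the kinase of the chromosomal passenger complex that KIF20A carries, fell by 1.34 in siOct4 samples (limma adjusted p = 0.0004491) and by 1.54 in siCcnf+siNipp1 samples (0.0001764). BIRC5 (survivin), of the same complex, fell by 1.47 in siOct4 samples (limma adjusted p = 0.0004161) and by 1.23 in siCcnf+siNipp1 samples (0.001096).

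HMMR, a spindle protein that binds TPX2, and SGO2, a shugoshin that protects centromeric cohesion, fell in both knockdowns. HMMR fell by 0.88 on the log2 scale in siOct4 samples (limma adjusted p = 0.01032) and by 1.72 in siCcnf+siNipp1 samples (0.0001862), and was higher by 0.84 in siOct4 than in siCcnf+siNipp1 samples (0.01234, and 0.05171 without siCcnf+siNipp1 replicate 2). SGO2 fell by 1.69 in siOct4 samples (limma adjusted p = 0.001777) and by 1.10 in siCcnf+siNipp1 samples (0.01692), and the difference of -0.59 between them did not pass (0.1704). The SGO2 call in siCcnf+siNipp1 samples was lost without siCcnf+siNipp1 replicate 1 (limma adjusted p = 0.05349) or control replicate 2 (0.05057) or 3 (0.05204).

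Kinesin light chains and cargo adaptors, 15 genes with a kept probe, moved in both directions: 4 were higher and 2 lower in siOct4 samples, 4 higher and 3 lower in siCcnf+siNipp1 samples, and 1 higher and 1 lower in siRb1 samples. The calls came to 40%, 46.7% and 13.3% of the list in these comparisons, beside 32.9%, 37.1% and 4.18% of all genes, and the list's medians were 0.14, -0.09 and -0.09. FYCO1, an adaptor that links late endosomes and autophagosomes to kinesin, rose most. It averaged 10.57 ± 0.155 in siOct4 samples, 10.61 ± 0.18 in siCcnf+siNipp1 samples, 9.39 ± 0.104 in siRb1 samples and 8.79 ± 0.0883 in control samples (SD, n = 3 each). Its log2 fold change was 1.79 in siOct4 samples (limma adjusted p = 7.865e-06), 1.83 in siCcnf+siNipp1 samples (5.923e-06) and 0.61 in siRb1 samples (0.02225). The siRb1 call of FYCO1 was lost without any 1 of the siRb1 or control arrays (limma adjusted p = 0.05015 to 0.1112).

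KLC1, the light chain that couples KIF5 heavy chains to cargo, rose by 0.63 in siOct4 samples (limma adjusted p = 0.006544, and 0.34 with 0.0741 when its kept probes were averaged) and by 1.16 in siCcnf+siNipp1 samples (0.000176). KLC3, another light chain, fell in all 3 knockdowns, with log2 fold changes of -1.42 in siOct4 samples (limma adjusted p = 0.0001439), -0.70 in siCcnf+siNipp1 samples (0.008333) and -1.03 in siRb1 samples (0.008122). MAPK8IP3 (JIP3), a scaffold that binds light chains, rose by 1.08 in siCcnf+siNipp1 samples (limma adjusted p = 0.0003576) and by 0.50 in siOct4 samples (0.0274). The siOct4 call of MAPK8IP3 was lost without siOct4 replicate 1 (limma adjusted p = 0.0804) or 2 (0.06962) or control replicate 3 (0.1161). KLC1 and KLC3 changed in opposite directions in siOct4 and in siCcnf+siNipp1 samples. Counted by probes, 6 of 22 of this list were called in siOct4 samples and 3 without siOct4 replicate 2, 11 in siCcnf+siNipp1 samples and 7 without siCcnf+siNipp1 replicate 2, and 2 in siRb1 samples and 1 without any 1 siRb1 or control array. Over all kept probes 4630 were called in siOct4 samples and 3554 without siOct4 replicate 2, and 5192 in siCcnf+siNipp1 samples and 3927 without siCcnf+siNipp1 replicate 2.

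Dynein and dynactin, the motor complex that runs the opposite way along microtubules, were read by 23 genes. Of these 4 were higher and 3 lower in siOct4 samples, 5 higher and 4 lower in siCcnf+siNipp1 samples, and 0 changed in siRb1 samples, with medians of 0.08, 0.01 and -0.02. The called share was 30.4% in siOct4 samples and 39.1% in siCcnf+siNipp1 samples, close to the shares of all genes. DCTN4, a dynactin subunit, fell by 1.09 in siOct4 samples (limma adjusted p = 0.0002859) and had a value of 0.21 in siCcnf+siNipp1 samples (0.3071). DCTN4 was lower by -1.29 in siOct4 than in siCcnf+siNipp1 samples (limma adjusted p = 7.785e-05). DYNC1I1, a dynein intermediate chain, rose by 0.85 in siOct4 samples (limma adjusted p = 0.01994) and by 0.82 in siCcnf+siNipp1 samples (0.02206). DYNLT1, a dynein light chain, rose by 0.70 in siCcnf+siNipp1 samples (limma adjusted p = 0.01224), and HOOK3, a dynein activator, fell by 0.66 there (0.01544).

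Several of these dynein calls depended on single arrays. Counted by probes, 8 of 33 of this list were called in siOct4 samples and 3 to 5 without siOct4 replicate 2 or 3 or any 1 control array, and 11 in siCcnf+siNipp1 samples and 4 to 7 without siCcnf+siNipp1 replicate 2 or 3 or any 1 control array. Under the same omissions the calls over all kept probes numbered 3432 to 3875 in siOct4 samples, against 4630 with all arrays, and 3927 to 4240 in siCcnf+siNipp1 samples, against 5192. DYNC1I1 lost its call without siOct4 replicate 3 (limma adjusted p = 0.08206) or control replicates 1 or 2 (0.05004 and 0.07721) in siOct4 samples, and without siCcnf+siNipp1 replicates 2 or 3 (0.07149 and 0.08548) or control replicates 1 or 2 (0.05468 and 0.08388) in siCcnf+siNipp1 samples. DYNLT1 lost it without siCcnf+siNipp1 replicate 3 (limma adjusted p = 0.05424). HOOK3 lost it without siCcnf+siNipp1 replicate 2 (limma adjusted p = 0.0665) or control replicates 1 or 3 (0.05155 and 0.06037).

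At 2-fold or more, 12 of the 31 kinesin probes were called in siOct4 samples against control, where 8.74% of all kept probes were, 13 in siCcnf+siNipp1 samples (9.24% of all) and 1 in siRb1 samples (1.3% of all). Between the knockdowns, 2 were called in siOct4 against siCcnf+siNipp1 samples (7.89% of all), 9 in siOct4 against siRb1 samples (8.41% of all) and 13 in siCcnf+siNipp1 against siRb1 samples (8.8% of all). Groups without overlap were found for 7 of the 31 probes in siRb1 against control samples (26.1% of all kept probes), 8 in siOct4 against siCcnf+siNipp1 samples (43.8%), 24 in siOct4 against siRb1 samples (44.2%) and 20 in siCcnf+siNipp1 against siRb1 samples (46.9%).

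Over all 4 groups, limma's F test called 22 of the 31 kinesin probes, where 55.2% of all kept probes were called. These were 13 of 14 mitotic probes, 8 of 15 transport probes and 1 of 2 in the third class. A permutation test over 3 arrays against 3 cannot go below an exact two-sided p of 0.1, which every kinesin whose 2 groups did not overlap reached.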

How the data were processed

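Per the file headers, the authors deposited 12 columns of signal intensity, each with its detection p-value, over 47322 probes. A second deposited table holds normalized intensity for 47303 probes, and no source used here names its normalization. GenomeStudio read the arrays, per the submitters' processing notes. The platform annotation gives 1 gene for 30102 probes, several for 8 and none for 17212. Of the 30102, 30063 gene identifiers were found in RefSeq's table and 0 symbols changed.

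Signals were processed in R 4.3.3 with limma 3.58.1 (neqc: background from the detection p-values, offset 16, quantile normalization, log2). Probes with 1 gene that were detected on 3 or more arrays (detection p-value below 0.01) were kept, and 1 model with a mean per group was fitted over all 12 arrays (lmFit, eBayes, 8 residual degrees of freedom). All 6 pairs of groups were tested two-sided with Benjamini-Hochberg adjustment over the 14441 kept probes, and calls were made at an adjusted p under 0.05. The fit was tested on simulated data with independent noise on each array. There 87% of 200 changed probes were recovered and 3.87% of calls were false. The simulation held no effect shared by same-numbered replicates, so it cannot speak for data with such an effect. The number of arrays limits the precision. Named genes were all kinesins, up to 4 genes with the largest called change in each companion list, CENPE and the siRNA targets. The members, lists and promoter motifs were chosen with earlier results of these data known.

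The replicate numbers in the labels paired the samples: in 18 of 18 pairs of same-numbered samples the deviations from the group means correlated above 0.1 (0.102 to 0.426), and all 12 arrays correlated best with their own number. A fit with the replicate number as a block was therefore an alternative. Others were no background correction, median scaling, the deposited normalized values, other detection filters, other ways to read a gene, an intensity trend, a 2-fold minimum, only the 6 arrays compared, and leaving out each array. A chip block could not be run, as the headers name no chip.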

Additional observations from a re-analysis of the deposited data

How the results depend on the processing

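Of 186 kinesin probe comparisons, 81 were called. Of these, 63 were called under every alternative, 18 were lost under at least 1, and 0 reversed. Of the 105 not called, 85 stayed so and 20 were called under at least 1 alternative. The replicate block lost 0 kinesin calls and gained 16. Against control it raised the counts of all probes to 6010 (siOct4), 6587 (siCcnf+siNipp1) and 1315 (siRb1), the siRb1 kinesin count to 2, and the transport counts to 6 (siOct4) and 10 (siCcnf+siNipp1).

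With a 2-fold minimum, all-probe counts were 1262 (siOct4), 1335 (siCcnf+siNipp1) and 188 (siRb1) against control, 1140 in siOct4 against siCcnf+siNipp1, 1215 in siOct4 against siRb1 and 1271 in siCcnf+siNipp1 against siRb1 samples. Kinesin counts were then 13 in siCcnf+siNipp1 against control, 2 in siOct4 against siCcnf+siNipp1 and 9 in siOct4 against siRb1 samples. Mitotic probes lower in siOct4 than in siRb1 samples numbered 7, and transport counts were 1 (siOct4) and 2 (siCcnf+siNipp1). These counts fall by construction. The siRb1 kinesin count was 2 without background correction, with the deposited values and with only the 6 arrays compared, and 0 of 22 with probes detected on all 12 arrays (limma), which leave KIF3C out. The transport count was 5 of 11 with 1 probe per gene in siOct4 samples, and 2 of 9 with probes detected on all 12 arrays in siCcnf+siNipp1 samples. The cause of the other changes was not tested.

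Leaving out 1 array gave, against control, 3432 to 4670 probes (siOct4), 3927 to 5296 (siCcnf+siNipp1) and 183 to 635 (siRb1). The siRb1 count was 364, 272 and 224 without siRb1 replicates 1, 2 and 3 and 373 and 183 without control replicates 2 and 3. Kinesin counts were 14 to 19 (siOct4), 15 to 21 (siCcnf+siNipp1) and 1 to 2 (siRb1, 2 without siCcnf+siNipp1 replicate 1). Between knockdowns all-probe counts were 3694 to 4693 in siOct4 against siCcnf+siNipp1, 3432 to 4586 in siOct4 against siRb1 and 3650 to 5000 in siCcnf+siNipp1 against siRb1 samples. Kinesin counts were then 4 (without siCcnf+siNipp1 replicate 3) to 8 in siOct4 against siCcnf+siNipp1, 16 to 19 in siOct4 against siRb1 and 17 to 19 in siCcnf+siNipp1 against siRb1 samples. Transport counts were 2 (without siOct4 replicate 2) to 5 (without siCcnf+siNipp1 replicate 1) in siOct4 samples and 4 (without siCcnf+siNipp1 replicate 2) to 6 in siCcnf+siNipp1 samples. Signal over background limits KIF1A, KIF3C, KIF5C, KIF12, KIF16B and KIF24, which were undetected on some or all arrays of a group. It also limits the dim probe of KIF23, undetected on 1 siOct4 array, and the dimmest probe of KIF1B, undetected on 1 siRb1 array.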

Other observations

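KIF1B was read by 3 probes that did not move alike. Its brightest probe had log2 fold changes of 0.26 in siOct4 and 0.14 in siCcnf+siNipp1 samples against control, while a dim probe annotated to the same transcript had -0.42 in both (limma adjusted p = 0.1236 and 0.1187, and 0.04528 and 0.04337 with the replicate block). This dim probe averaged 6.86 in siOct4 and in siCcnf+siNipp1 samples and 7.28 in control samples. It was undetected on 1 siRb1 array, so its low signal limits the comparison. The dim minus the bright probe differed from control by -0.684 in siOct4 samples and -0.557 in siCcnf+siNipp1 samples. A probe of another KIF1B transcript shifted against the bright probe by 0.535 in siRb1 samples. For KIF23 the same measure was -3.58 ± 0.126 in siRb1 samples and -2.81 ± 0.184 in control samples (SD, n = 3 each), a change of -0.768. KIF1B and KIF23 were chosen for these differences after their values were seen, and the differences are given with no test.

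The second probe of KIF16B was detected on 3 arrays, 1 of siOct4 and 2 of siCcnf+siNipp1 samples. It passed the filter only through these groups and was undetected on all 3 control arrays. Its fitted log2 fold change in siCcnf+siNipp1 samples was 0.96 (limma adjusted p = 0.02472). There the probe was undetected on 1 array, and the group overlapped control. The call was lost without siCcnf+siNipp1 replicate 2 (0.09236) or 3 (0.1032) or control replicate 1 (0.06525) or 3 (0.08482).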
